A study of Rattus norvegicus with 12 samples.

Results

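The cytosolic ribosomal protein genes encode the proteins of the ribosome that works outside mitochondria. They were taken from a deposited expression table as the rows whose gene name begins with Rpl or Rps, optionally with a or p, followed by a digit, together with Rpsa and without the Rps6k kinases. Where several rows carried one name, the row with the highest mean was kept, which turned 91 rows into 82 genes of the 18344 rows in the table. By name they were 27 genes of small subunit proteins, 40 of large subunit proteins, 2 of the stalk (Rplp0 and Rplp1), 12 paralogs or copies with a suffixed name, and Rps19bp1, which matches the name but encodes a binding partner of Rps19 and no ribosomal subunit. A further 8 symbols of the ribosome (Rplp2, Rps6, Rps14, Rps19, Rps26, Rpl10a, Rpl22 and Rpl23a) are not analysed here.

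The values came from 12 poly-A RNA sequencing libraries of rat cells, all put through OGD/R, in which oxygen and glucose are withheld and then given back as a culture model of ischaemia. Each of the 4 groups held 3 libraries that the labels call biological replicates: CIRBP and its control NC, and si-CIRBP and its control si-NC. CIRBP is the cold-inducible RNA-binding protein. The sources used here give neither the way in which CIRBP was raised or targeted nor the content of NC and si-NC. An unexplained prefix, ad, stands before the column names of these NC and CIRBP libraries in the table. Cells without OGD/R are not analysed here. The labels name H9C2, a myoblast line derived from embryonic rat heart, as source and tissue, while their cell line entry reads rat astrocytes. Of 10 heart and muscle markers found, 2 averaged at least 1 FPKM in CIRBP, 3 in NC, 7 in si-CIRBP and 6 in si-NC. Their summed level was 7.19 to 8.75 FPKM in CIRBP, 10.2 to 11.8 in NC, 498 to 825 in si-CIRBP and 90.3 to 1082 in si-NC. In the si arm most of this sum was Acta2, at 466 to 659 FPKM in si-CIRBP and 73.8 to 954 FPKM in si-NC. In CIRBP and NC, Acta2 was at 0.40 to 2.18 FPKM. Other muscle genes were also higher in the si arm. Myod1 was at 0 to 0.08 FPKM in CIRBP and NC and at 1.74 to 21.6 FPKM in the si arm. In the same order, Myog was at 0 to 0.12 and 0.80 to 44.8 FPKM, and Tnnt2 at 2.61 to 4.56 and 5.05 to 89.9 FPKM. Des, Myl4 and Nppa overlapped between the arms. The cardiac gene Nkx2-5 was listed at 0 in every CIRBP and NC library and at 0.05 to 1.97 FPKM in the si arm. Myh6 and Actc1 went the other way, also at low levels. Myh6 averaged 0.856 FPKM in CIRBP, 0.840 in NC, 0.736 in si-CIRBP and 0.548 in si-NC. Actc1 averaged 0.258, 0.191, 0.148 and 0.0737 FPKM in the same order. Astrocyte markers (8 found) summed to 285 to 302 FPKM in CIRBP, 191 to 205 in NC, 214 to 224 in si-CIRBP and 169 to 197 in si-NC, mostly from S100b and Aldoc, with Gfap between 1.44 and 6.89 FPKM. The identity of the cells is thus unclear. The summed heart and muscle markers differ between the arms, and the summed astrocyte markers differ within both pairs of groups. Single astrocyte markers differ between the arms too: Gfap was lower in the si arm and Slc1a3 higher. The part of all these markers in the results below was not tested.

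A ribosome is built from a small subunit, which reads the mRNA, and a large subunit, which joins the amino acids. Its proteins are needed in nearly equal numbers, so their genes are among the most strongly and most evenly transcribed of the genome. Their mRNAs begin with a C followed by an unbroken run of pyrimidines, the terminal oligopyrimidine (TOP) motif, through which mTOR and the RNA-binding protein LARP1 adjust their translation and stability. In heart muscle, as in other tissues, growth goes with more ribosomes, and stress and lack of nutrients go with fewer.

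The sequence around the start site is shown for some of the members named below, whether or not it holds the motif. Of the 82 members, 62 matched a gene of the RefSeq promoter table of the GRCr8 assembly, with 63 promoters. Each line gives 30 bases before and 20 bases from the annotated first transcribed base, which is base 31, and capitals mark the run of C and T through that base. The first 5 genes were higher in CIRBP than in NC and the other 6 were lower. These lines do not stand for all members called in either direction. Rpl21, Rpl23, Rpl26, Rpl41 and Rpl22l1, also called higher, have no pyrimidine at the annotated first base and are not shown. A pyrimidine stood there in 17 of 24 promoters of members called higher and in 3 of 9 of those called lower.
Rps4x, chrX:71342902-71342951, minus strand: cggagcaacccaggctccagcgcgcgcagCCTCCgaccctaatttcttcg
Rps3a, chr2:173827023-173827072, minus strand: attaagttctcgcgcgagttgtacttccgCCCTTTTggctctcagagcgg
Rps23, chr2:23814487-23814536, plus strand: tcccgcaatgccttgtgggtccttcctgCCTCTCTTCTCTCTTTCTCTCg
Rps24, chr16:96487-96536, plus strand: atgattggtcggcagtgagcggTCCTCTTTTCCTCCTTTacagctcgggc
Rpl34, chr2:221962264-221962313, minus strand: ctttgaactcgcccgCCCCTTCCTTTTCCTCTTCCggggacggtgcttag
Rps2, chr10:14251818-14251867, plus strand: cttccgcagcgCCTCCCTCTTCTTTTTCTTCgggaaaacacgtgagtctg
Rpl4, chr8:73566447-73566496, plus strand: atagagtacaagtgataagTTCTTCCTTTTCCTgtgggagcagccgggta
Rplp1, chr8:71290853-71290902, minus strand: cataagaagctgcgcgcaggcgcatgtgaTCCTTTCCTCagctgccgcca
Rpl11, chr5:153560783-153560832, minus strand: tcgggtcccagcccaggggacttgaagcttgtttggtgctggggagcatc
Rpl7l1, chr9:21695688-21695737, plus strand: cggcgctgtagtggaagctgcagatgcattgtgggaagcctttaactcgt
Rps27l, chr8:76443628-76443677, plus strand: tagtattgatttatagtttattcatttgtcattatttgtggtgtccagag
A run of at least 8 pyrimidines through the first base stood in 28 of the 63 member promoters (44.4%), against 4.43% of all 33469 promoters in the table. All 28 belonged to subunit genes (28 of 56), and none of the 7 promoters of paralogs and Rps19bp1 had one. C at the first base followed by at least 4 pyrimidines was found in 31.7% of member promoters and 2.63% of all promoters. The run was present in 11 of 24 promoters of members called higher in CIRBP, in 3 of 9 of those called lower and in 14 of 28 of those not called. Where the start is annotated a few bases away from the one used, this search misses the run: only 29 of the 63 starts were also the outer end of the annotated gene. The run also counts bases before the annotated start, which are not part of a TOP motif at that start. In Rps2 only 1 of its 20 bases lay from the start on, and in Rpl4 3 of 14. Over the whole window of 300 bases, on either strand, CCGGAAG (the core bound by ETS factors) stood in 28.6% of member promoters and 8.75% of all, TCGCGAGA in 14.3% and 0.855%, and AAGATGGC (the core bound by YY1) in 9.52% and 3.17%. CCGGAAG was more frequent still in promoters of ribosome assembly factors (51.9%), initiation factors (40.9%) and mitochondrial ribosomal proteins (32.8%), and AAGATGGC in those of mitochondrial ribosomal proteins (24.6%), the nuclear respiratory chain (22.4%) and elongation factors with other TOP genes (21.1%). None of these motifs is contained in another.

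The levels are FPKM, fragments scaled to gene length and library, so that genes can be set beside each other. The mean of the 82 members over the 12 libraries had a median of 363 FPKM and ran from 0.115 to 1385 FPKM. At least 100 FPKM was reached by 59 members, at least 500 by 28 and at least 1000 by 3: Rplp0, the core protein of the stalk, Rps2, a protein at the mRNA entry channel, and Rpl41, the smallest ribosomal protein. At the other end, 11 members averaged under 5 FPKM. Besides 6 paralogs, these were the subunit genes Rpl9, Rpl35a, Rpl39, Rps29 and Rpl38. Rpl38, a large subunit protein, was at 1.74, 3.02 and 5.29 FPKM in CIRBP and 2.61, 4.31 and 6.78 FPKM in NC, and at 2.75, 6.52 and 2.00 FPKM in si-CIRBP and 4.07, 2.01 and 8.38 FPKM in si-NC. Rps29, a zinc-binding small subunit protein, was at 2.00, 3.66 and 2.82 FPKM in CIRBP and 2.18, 2.24 and 3.68 FPKM in NC, and at 1.82, 2.90 and 4.47 FPKM in si-CIRBP and 2.74, 1.06 and 2.76 FPKM in si-NC. Rpl39, a protein of the exit tunnel, was at 1.87, 2.10 and 1.44 FPKM in CIRBP, 2.90, 1.72 and 2.17 FPKM in NC, 2.34, 1.88 and 3.23 FPKM in si-CIRBP and 1.34, 2.43 and 2.23 FPKM in si-NC. The libraries of single groups overlap widely for these genes, and values this low leave little to compare. Fau, which encodes the small subunit protein eS30 and lies outside the name rule, was likewise at 0.18 to 1.52 FPKM. Ribosomal protein genes have many near-identical copies in the rat genome, and the sources used here do not tell how reads shared by such copies were counted, so levels of single genes are uncertain. In such bulk libraries, fewer cells of a type and less RNA per cell cannot be told apart.

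Some rows switched between libraries by far more than any group difference. Rpl8, a large subunit protein near the peptidyl transferase centre, was listed at 2.05, 1.85 and 1.66 FPKM in CIRBP and 198, 1.19 and 2.40 FPKM in NC. In si-CIRBP it was at 2.05, 2.10 and 2.15 FPKM and in si-NC at 2.05, 260.4 and 2.80 FPKM. NC library 1 and si-NC library 2 thus stand alone, and the other 10 libraries lie between 1.19 and 2.80 FPKM. Rpl7a, another large subunit protein, had 2 rows, and one reached 76.8 FPKM in NC library 1 while the other reached 78.8 FPKM in NC library 3 and 74.3 FPKM in si-NC library 1, against 15.4 to 39.5 FPKM elsewhere. The 2 rows of Rps27a, which encodes a ubiquitin fused to eS31, divided unevenly between libraries: they were nearly equal in NC library 1 (312 and 307 FPKM) and far apart in NC library 3 (601 and 108 FPKM). Its kept row lay between 312 and 822 FPKM and the other between 108 and 385 FPKM, but their sum stayed between 619 and 949 FPKM. Rps4x behaved otherwise: its rows moved together, at 290.1 to 302 and 109 to 113 FPKM in CIRBP, against 202 to 211 and 69.3 to 81.4 FPKM in NC. Rows of one name also occurred for Rpl21 (4), Rpl32, Rps10 and Rps19l2. Each kept row stayed within 2-fold among the libraries of each group for 71 members. The 7 tested members that did not were Rpl7a, Rpl8, Rpl21, Rpl38, Rps29, Rps10l1 and Rps15al4, and their fold changes are uncertain.

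**Figure D1:**
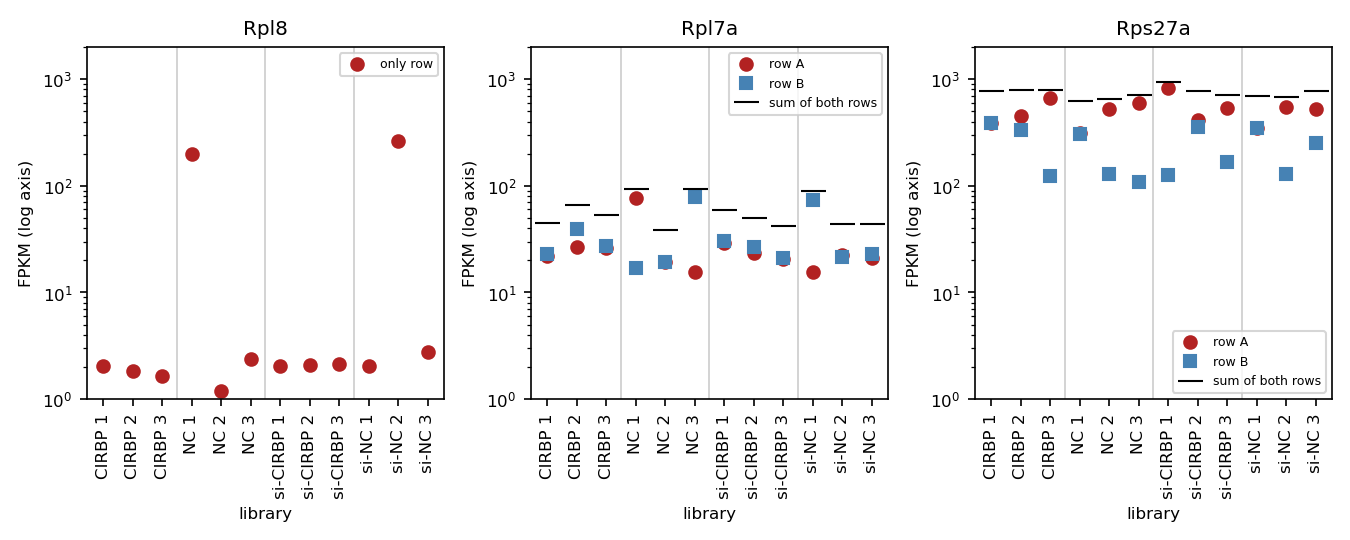
FPKM (log axis) of the rows of Rpl8, Rpl7a and Rps27a in each library, with the sum of both rows where there are 2. Rpl8 reaches 260.4 FPKM in si-NC 2 and 198 FPKM in NC 1 and stays near 2 FPKM elsewhere, and the rows of Rps27a are nearly equal in some libraries and far apart in others while their sum stays between 619 and 949 FPKM.

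Cirbp, the gene the treatments are aimed at, was at 34.3, 36.5 and 36.5 FPKM in CIRBP, against 19.03, 19.8 and 20.1 FPKM in NC (log2 fold change 0.83, SE 0.035, adjusted p = 4.92e-06). The libraries labelled si-CIRBP had 26.5, 28.6 and 27.7 FPKM, against 29.0, 24.2 and 27.0 FPKM in si-NC (log2 fold change 0.05, SE 0.088, adjusted p = 0.760), so no lower Cirbp mRNA was seen under that label and no direction below rests on a measured loss of it. It was also higher in si-NC than in NC (log2 fold change 0.42, SE 0.073, adjusted p = 0.0105). The summed table reached 457775 to 502889 FPKM per library and absolute depth is unknown. Libraries of the si arm varied more: the median SD of log2 values within a group was 0.147 in si-CIRBP and 0.133 in si-NC, against 0.057 in CIRBP and 0.0539 in NC. One library stood apart for the ribosomal protein genes. Library 1 of si-CIRBP lay above both other libraries of its group for 70 of the 78 tested members, against 41.7% of all rows, by a median ratio of 1.18, and it held the highest value of all 12 libraries for 55 members. Its heart and muscle markers summed to 498 FPKM, against 659.9 and 825 FPKM in libraries 2 and 3, with 6 of the 10 lowest and 2 highest of the group, and si-NC library 1 had the lowest sum of its own group, 90.3 FPKM, against 1082 and 778 FPKM. Acta2 made up most of each of these sums. NC library 3 lay above both other NC libraries for 69 members, against 38.9% of all rows. The part of these markers in the level of the members was not tested. Results that rest on these libraries are given with and without them.

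The members held 5.92, 5.999 and 6.08% of the summed FPKM in CIRBP, against 5.71, 5.89 and 6.12% in NC. In the libraries labelled si-CIRBP they held 7.29, 6.11 and 6.27%, against 6.37, 6.20 and 6.49% in si-NC. The groups of both pairs overlap, and the highest share, 7.29%, was that of si-CIRBP library 1. The other 2 si-CIRBP shares lay within or below the range of si-NC. Without the 20 highest other rows the shares were 6.78, 6.88 and 6.97% in CIRBP, against 6.32, 6.52 and 6.77% in NC. These no longer overlap, but the nearest libraries, CIRBP 1 and NC 3, were at 6.777 and 6.774%. The CIRBP and NC groups still overlapped without mitochondrially encoded rows, at 6.43 to 6.61% and 6.08 to 6.51%. They also overlapped with rows of one symbol summed and with only the members that stayed within 2-fold.

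**Figure D2:**
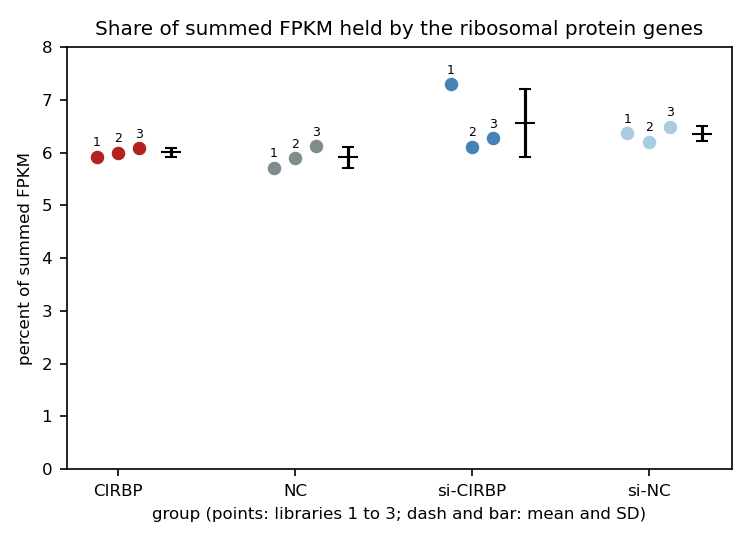
Percent of the summed FPKM of each library held by the 82 ribosomal protein genes, by group, with the mean and SD beside the 3 libraries. All libraries lie between 5.71 and 6.49% apart from si-CIRBP 1 at 7.29%.

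CIRBP against NC shows how the genes stood with more Cirbp mRNA. Of the 82 members, 78 reached 1 FPKM in at least 3 libraries and were tested with the 14257 rows that did, using limma on log2(FPKM + 1). Rpl10l, Rpl30l1, Rpl39l and Rpl3l did not, at means of 0.115 to 0.263 FPKM. At an adjusted p under 0.05, 42 of the 78 changed, against 70.7% of all rows tested. There were 31 higher members (39.7%, against 27.9% of all rows) and 11 lower ones (14.1%, against 42.8%). The median log2 fold change was 0.11 over the members and -0.08 over all rows. Changes were small: the 31 increases ran from 0.15 to 0.81, the 11 decreases from -0.62 to -0.09, and no called change reached a doubling or halving of FPKM. In 35 members all CIRBP libraries lay above all NC libraries, against 29.7% of all rows, and in 13 they lay below, against 45.0%. This split moved with the scaling of the libraries. Bringing all libraries to one median moved the median of all rows to 0.03 and that of the members to 0.26, with 50 members called higher and 4 lower, against 37.3% and 33.4% of all rows. With median ratios the split was 48 to 5, against 35.9% and 35.0%. Scaling to one sum of non-members moved the median of all rows to -0.14 and that of the members to 0.04, with 29 called higher and 17 lower, against 24.2% and 47.2% of all rows. Without NC library 3 the median of the members was 0.18, with 39 higher and 8 lower (26.8% and 41.2% of all rows), and without NC library 1 it was 0.07.

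**Figure D3:**
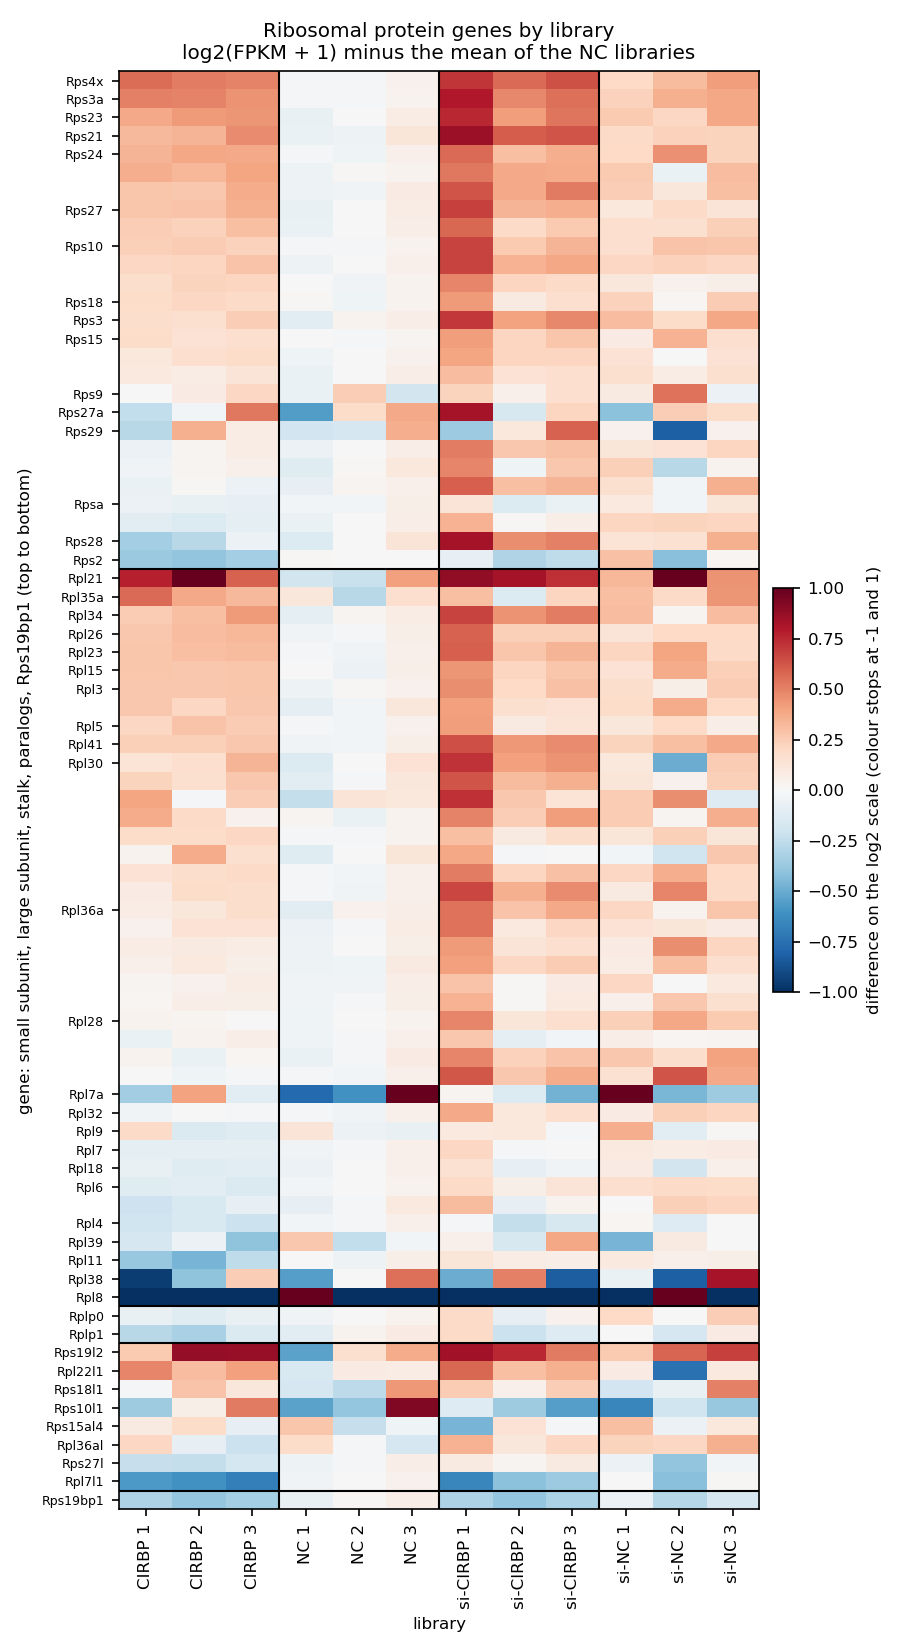
Difference of log2(FPKM + 1) from the mean of the NC libraries, for the 78 tested genes (down the page, with names beside those the text describes, by class and then by fold change in CIRBP against NC) in the 12 libraries (across). Most genes are red in CIRBP and more so in si-CIRBP 1, Rps2, Rpl11 and Rpl7l1 are blue in CIRBP, and single fields of strong colour mark rows that switch, such as Rpl8.

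Small subunit genes were 16 of the 31 increases. Of 27 tested, 16 rose and 2 fell in CIRBP, against 27.9% and 42.8% of all rows, with a median log2 fold change of 0.19. Rps4x, which encodes the X-linked form of eS4, was at 302, 293 and 290.1 FPKM in CIRBP, against 202, 202 and 211 FPKM in NC (log2 fold change 0.52, SE 0.028, adjusted p = 1.16e-05). Rps3a, a protein near the mRNA exit site, was at 543, 539 and 521 FPKM in CIRBP and 377, 378 and 392 FPKM in NC (log2 fold change 0.48, SE 0.029, adjusted p = 1.73e-05). For both genes every CIRBP library lay above every NC library with a wide gap. Rps23, which sits at the decoding centre, was at 654, 677 and 685 FPKM in CIRBP, against 479, 505 and 530.1 FPKM in NC (log2 fold change 0.41, SE 0.044, adjusted p = 0.000217). Rps21, an eukaryote-specific protein of the small subunit, was at 545, 550.5 and 605 FPKM in CIRBP and 414, 419.5 and 472 FPKM in NC (log2 fold change 0.38, SE 0.066, adjusted p = 0.00215). Rps24 rose by 0.37 on the log2 scale. Among the smaller called increases of the class were those of Rps15 (0.16) and Rps3 (0.19). For Rps3, which lines the mRNA entry channel and also acts in DNA repair, 515, 509 and 542 FPKM in CIRBP stood against 425, 468 and 478 FPKM in NC (adjusted p = 0.0159). Its call was lost after scaling to one sum of non-members and in a fit over all 12 libraries. Rpsa, the laminin receptor protein of the small subunit, was at 940.0, 932 and 926 FPKM in CIRBP and 962, 962 and 1022 FPKM in NC (log2 fold change -0.07, SE 0.037, adjusted p = 0.118), which did not pass the test.

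Rps2 went the other way within the same subunit. It was at 1014, 1003 and 1041 FPKM in CIRBP, against 1323, 1313 and 1309.6 FPKM in NC (log2 fold change -0.37, SE 0.033, adjusted p = 0.000102), and its groups lie far apart. It fell in every alternative run, with adjusted p between 2.26e-05 and 0.0478. Of the 6 genes at the mRNA entry and decoding sites, 4 rose (Rps3, Rps15, Rps18 and Rps23), Rps2 fell and Rps9 did not pass the test. Of all rows 27.9% were higher and 42.8% lower. These 6 are close to their whole class, in which 16 of 27 small subunit genes rose and 2 fell.

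Among large subunit genes 14 rose and 5 fell of 40 tested, against 27.9% and 42.8% of all rows, with a median of 0.10. Of this class 47.5% were called, against 70.7% of all rows. Rpl21 had the largest increase, at 395, 478 and 347 FPKM in CIRBP, against 202, 197 and 305 FPKM in NC (log2 fold change 0.81, SE 0.20, adjusted p = 0.0106). Its kept row varies strongly within groups, and it has 3 other rows of the same name. Rpl35a was at 2.94, 2.47 and 2.33 FPKM in CIRBP and 1.88, 1.20 and 1.98 FPKM in NC (log2 fold change 0.42, SE 0.13, adjusted p = 0.0289), a low level at which the call was lost without CIRBP library 1 or 2. Rpl34, Rpl23, Rpl26, Rpl15 and Rpl3 followed, with log2 fold changes of 0.33, 0.30, 0.30, 0.27 and 0.27. Rpl23, at the face where Eif6 binds, was at 549, 559 and 566 FPKM in CIRBP, against 448, 444 and 471 FPKM in NC (log2 fold change 0.30, SE 0.032, adjusted p = 0.000222). Rpl3, a core protein near the peptidyl transferase centre, was at 241, 241 and 242 FPKM in CIRBP and 193, 202 and 206 FPKM in NC (log2 fold change 0.27, SE 0.028, adjusted p = 0.000197). The 14 increases also held Rpl41, the third most abundant member, at 1046, 1045 and 1072 FPKM in CIRBP and 869, 873 and 924 FPKM in NC (log2 fold change 0.25, SE 0.037, adjusted p = 0.00119).

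Rpl5 and Rpl11, which form a particle with 5S RNA and, when free, bind and block the p53 ligase Mdm2, moved in opposite directions. Rpl5 was at 527, 554 and 544 FPKM in CIRBP, against 450.1, 448 and 469.7 FPKM in NC (log2 fold change 0.25, SE 0.032, adjusted p = 0.000596). Rpl11 was at 52.3, 49.1 and 57.2 FPKM in CIRBP, against 68.2, 65.9 and 71.1 FPKM in NC (log2 fold change -0.37, SE 0.059, adjusted p = 0.00152). Both pairs of groups are apart, Rpl5 with CIRBP above and Rpl11 with CIRBP below, and both calls held in all 18 alternatives run. Rpl4, a protein of the exit tunnel, fell by 0.19 on the log2 scale (adjusted p = 0.00260), Rpl6 by 0.12 (adjusted p = 0.00821) and Rpl18 by 0.10 (adjusted p = 0.0434). Rpl7, at 86.2, 86.3 and 86.2 FPKM in CIRBP and 89.6, 91.3 and 95.3 FPKM in NC, fell by 0.09 (adjusted p = 0.0179), but its sign turned with both median scalings, to 0.06 (one median) and 0.03 (median ratios).

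Of the genes of the stalk, which recruits the translational GTPases, Rplp1 fell in CIRBP. Rplp1 was at 778, 752 and 852 FPKM in CIRBP, against 871, 964 and 996 FPKM in NC (log2 fold change -0.25, SE 0.069, adjusted p = 0.0176), and the call was lost in 7 alternatives, both median scalings among them. Rplp0 was at 1288, 1244 and 1286 FPKM in CIRBP and 1323, 1354 and 1389.6 FPKM in NC (log2 fold change -0.09, SE 0.038, adjusted p = 0.0758), which did not pass the test.

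Paralogs are set beside their parent genes, with no test between the pairs. Rpl7l1, a relative of Rpl7 that acts in large subunit assembly, had the largest called decrease, at 74.9, 73.0 and 69.2 FPKM in CIRBP, against 109, 112 and 115 FPKM in NC (log2 fold change -0.62, SE 0.036, adjusted p = 1.53e-05), beside the small change of Rpl7. Rps27l was at 147, 147 and 153 FPKM in CIRBP, against 167, 172 and 182 FPKM in NC (log2 fold change -0.22, SE 0.035, adjusted p = 0.00170), while its parent Rps27 was at 499, 504 and 527 FPKM in CIRBP and 391, 414 and 434 FPKM in NC (log2 fold change 0.30, SE 0.045, adjusted p = 0.00107). Rps27l is known as a p53 target in human cells, and its call here was lost with one-median scaling and in the fit over all 12 libraries. Rpl22l1, whose parent Rpl22 is not analysed here, was at 109, 96.6 and 103 FPKM in CIRBP, against 69.9, 82.3 and 81.7 FPKM in NC (log2 fold change 0.40, SE 0.076, adjusted p = 0.00328). The call of Rpl22l1 was lost in the limma fit over all 12 libraries (adjusted p = 0.101). Rpl36al was at 34.4, 28.1 and 25.5 FPKM in CIRBP and 34.0, 29.4 and 26.4 FPKM in NC (log2 fold change -0.03, SE 0.13, adjusted p = 0.852), beside 0.12 for Rpl36a (adjusted p = 0.0847), and neither passed the test. Of the 8 tested paralogs and copies, 1 rose, 2 fell and 5 did not pass: Rps19l2, Rps18l1, Rps10l1, Rps15al4 and Rpl36al. The shares of all rows called higher and lower were 27.9% and 42.8%. Rps19bp1 was at 39.5, 37.4 and 38.6 FPKM in CIRBP, against 46.5, 49.5 and 51.6 FPKM in NC (log2 fold change -0.34, SE 0.042, adjusted p = 0.000442). Outside the name rule, Rack1, a scaffold on the small subunit, rose by 0.19 on the log2 scale (adjusted p = 0.00160).

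In si-CIRBP against si-NC the spread was wider and a single member passed the test. The fold change was positive in 55 of 78 members, against 6269 of all 14257 rows. Its median was 0.10 over the members and -0.04 over all rows. Rps21 alone was called (1 of 78, against 8.1% of all rows; higher in 1.87%), and none was lower, against 6.24%. At an unadjusted p under 0.05 there were 12, against 27.5% of all rows. Rps21 was at 789, 661 and 674 FPKM in si-CIRBP, against 496, 510.4 and 507 FPKM in si-NC (log2 fold change 0.48, SE 0.10, adjusted p = 0.0402). All 3 si-CIRBP libraries lay above all si-NC libraries, but the call was lost in 7 of 19 alternatives, with adjusted p from 0.00142 to 0.158. Non-overlapping groups with si-CIRBP above were seen in 21 members, against 11.7% of all rows, and with si-CIRBP below in 1, Rps19bp1, against 24.3%. The median was 0.24 over small subunit genes, to which 13 of the 21 belonged, and 0.05 over large subunit genes. A fit over all 12 libraries, in which the steadier arm lends its spread, called 15 members, 14 higher and 1 lower, against 9.08% and 20.5% of all rows. Without si-CIRBP library 1 the median of the members was 0.02 with 1 call, against 13.2% of all rows. Without any single one of the other 5 libraries no member was called, against 0.526 to 3.23% of all rows. Leaving out si-NC library 2 as well gave a median of 0.04 and 5 calls, 4 higher and 1 lower, against 4.63% and 12.2% of all rows.

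Several members follow as examples. Rps4x was at 337, 304 and 319 FPKM in si-CIRBP, against 236, 255 and 274 FPKM in si-NC (log2 fold change 0.33, SE 0.088, adjusted p = 0.0699). Rps3a was at 666, 533 and 561 FPKM in si-CIRBP and 448, 490.4 and 501 FPKM in si-NC (log2 fold change 0.28, SE 0.11, adjusted p = 0.165). Both had every si-CIRBP library above every si-NC library and missed the threshold. Rpl22l1 was at 116, 95.9 and 99.8 FPKM in si-CIRBP, against 82.4, 45.9 and 83.3 FPKM in si-NC (log2 fold change 0.60, SE 0.24, adjusted p = 0.165), with si-NC library 2 lowest of the 12. Rpl7l1 was at 70.6, 83.9 and 86.8 FPKM in si-CIRBP and 112, 83.2 and 112 FPKM in si-NC (log2 fold change -0.34, SE 0.15, adjusted p = 0.193), with overlapping groups. The largest positive fold change of a subunit gene was that of Rpl30, at 308, 247 and 254 FPKM in si-CIRBP and 201, 131 and 222 FPKM in si-NC (log2 fold change 0.57, SE 0.21, adjusted p = 0.136). Rpl34 was at 549, 470.3 and 491 FPKM in si-CIRBP and 425, 349 and 425 FPKM in si-NC (log2 fold change 0.33, SE 0.12, adjusted p = 0.125). Both had every si-CIRBP library on top without passing. Rps2 was at 1244, 1066 and 1101 FPKM in si-CIRBP, against 1609, 986 and 1334 FPKM in si-NC (log2 fold change -0.18, SE 0.19, adjusted p = 0.604).

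The arms were compared directly as the change in CIRBP against NC minus the change in si-CIRBP against si-NC, in a fit over all 12 libraries. The median of this difference was 0.00 over the members and -0.06 over all rows, and 3 of 78 members were called, against 17.8% of all rows. All 3 were lower (10.9% of all rows), and none was higher (6.87%). Rps28, a small subunit protein at the mRNA exit site, was at 261, 273 and 318 FPKM in CIRBP, against 301, 333 and 363 FPKM in NC (log2 fold change -0.23, SE 0.096, adjusted p = 0.0756). The same gene was at 592, 459 and 470.2 FPKM in si-CIRBP, against 365, 369 and 424 FPKM in si-NC (log2 fold change 0.39, SE 0.13, adjusted p = 0.116). Neither change passed on its own, one pointing down and the other up, and their difference was -0.61 (adjusted p = 0.0277). For Rps27l, 184, 177 and 185 FPKM in si-CIRBP stood against 166, 131 and 170.3 FPKM in si-NC (log2 fold change 0.23, SE 0.11, adjusted p = 0.244), and the difference of the arms was -0.45 (adjusted p = 0.0286). Rpl11 was at 74.5, 72.2 and 71.6 FPKM in si-CIRBP and 73.0, 71.0 and 71.2 FPKM in si-NC (log2 fold change 0.02, SE 0.060, adjusted p = 0.864). Its lower level is seen in the 3 CIRBP libraries, at 49.1 to 57.2 FPKM, whereas the other 9 libraries lay between 65.9 and 74.5 FPKM, and the difference was -0.39 (adjusted p = 0.00837). The call of Rpl11 was lost in 1 of 23 alternatives, that of Rps28 in 5 and that of Rps27l in 7. Without si-CIRBP library 1, 13 members were called, 10 higher and 3 lower, against 12.8% and 18.8% of all rows. Without CIRBP library 1, CIRBP library 2, NC library 2 or NC library 3, 1 was called, against 11.2 to 11.8% of all rows. No difference between the arms passed for the other 75 members, among them Rps21, whose difference was -0.10 (adjusted p = 0.581). A missed threshold does not show that the arms are alike.

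**Figure D4:**
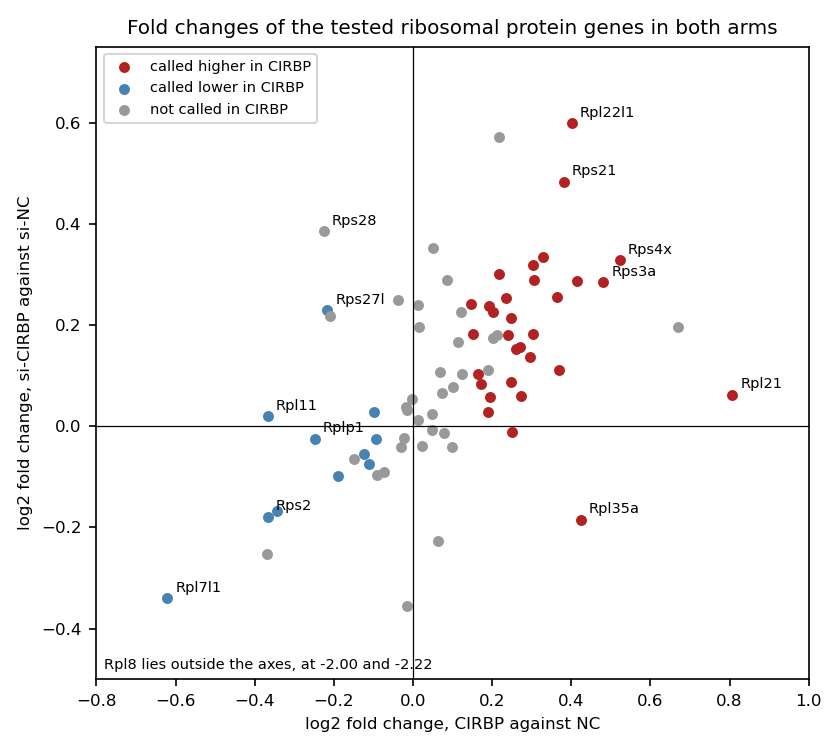
Log2 fold change of the tested genes in CIRBP against NC (across) and in si-CIRBP against si-NC (up), coloured by the call in CIRBP against NC. Rps28 and Rps27l lie left of 0 and above 0, Rpl11 lies left of 0 near the horizontal line, and Rpl8 lies outside the axes at -2.00 and -2.22.

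The control groups differed from each other as well, and the NC libraries enter both this comparison and CIRBP against NC. In si-NC against NC, 16 of 78 members were called (20.5%, against 31.6% of all rows). All 16 were higher, against 10.2% of all rows, and none was lower, against 21.4%. An unadjusted p under 0.05 was found for 27 members, against 46.5% of all rows. The median was 0.17 over the members and -0.07 over all rows. In 37 members all si-NC libraries lay above all NC libraries, against 19.1% of all rows, and in none below, against 34.0%. Rps3a was at 448, 490.4 and 501 FPKM in si-NC, against 377, 378 and 392 FPKM in NC (log2 fold change 0.32, SE 0.060, adjusted p = 0.0123). Rps4x was at 236, 255 and 274 FPKM in si-NC and 202, 202 and 211 FPKM in NC (log2 fold change 0.31, SE 0.065, adjusted p = 0.0175). Rpl28, a large subunit protein, was at 147, 164 and 149.9 FPKM in si-NC, against 121, 125 and 128 FPKM in NC (log2 fold change 0.30, SE 0.055, adjusted p = 0.0123), with no overlap. Rpl41 and Rps24 rose by 0.30 and 0.30 on the log2 scale. The count moved with single libraries, as did the calls over all rows. It was 0 without NC library 1, 0 without NC library 2, 3 without NC library 3 and 2 without si-NC library 3, against 8.98, 8.91, 11.3 and 12.5% of all rows. It was 28 without si-NC library 1 and 27 without si-NC library 2, against 49.3 and 30.5% of all rows. Scaling to one median gave 26 calls, by median ratios 29 and to one sum of non-members 10, against 31.2, 31.9 and 32.4% of all rows. The arm and whatever else separates the controls cannot be told apart.

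Genes that make, use or watch ribosomes were read in the same fits, in which 27.9% of all rows were higher and 42.8% lower in CIRBP, and 1.87% higher and 6.24% lower in si-CIRBP. Ribosome assembly factors, which process ribosomal RNA and build the subunits in the nucleolus, fell in CIRBP almost throughout: 77 of 83 tested were lower and 1 higher, with a median of -0.79. Rrp12, a factor of subunit export, averaged 3.74 ± 0.164 FPKM in CIRBP and 17.1 ± 0.465 FPKM in NC (SD, n = 3 each), a log2 fold change of -1.93 (adjusted p = 1.02e-06). Wdr43, a small subunit processome protein, averaged 15.3 ± 0.155 FPKM in CIRBP and 42.0 ± 1.18 FPKM in NC (log2 fold change -1.40). The nucleolar helicase Ddx21 averaged 24.2 ± 0.665 FPKM in CIRBP, against 54.5 ± 0.688 FPKM in NC (log2 fold change -1.14). The list of RNA polymerase I and ribosomal DNA transcription had 1 higher and 14 lower of 17 (median -0.50), with Taf1d at -1.34 and Polr1a, the largest subunit of the enzyme, at -0.83. In the si arm 38 of the 83 assembly factors were called lower and none higher (median -0.43). The smallest adjusted p among them was that of Gnl3, the nucleolar protein nucleostemin, at 36.1 ± 2.53 FPKM in si-CIRBP and 68.4 ± 4.40 FPKM in si-NC (log2 fold change -0.90). The difference of the arms was called lower for 45 assembly factors and higher for none, against 10.9% and 6.87% of all rows.

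Myc, a transcription factor that drives genes of ribosome production, was lower in both arms, at 11.9, 12.7 and 11.4 FPKM in CIRBP and 31.9, 30.7 and 32.1 FPKM in NC (log2 fold change -1.33, SE 0.043, adjusted p = 2.13e-06). In si-CIRBP it was at 10.2, 8.43 and 8.27 FPKM, against 29.1, 25.4 and 24.6 FPKM in si-NC (log2 fold change -1.46, SE 0.11, adjusted p = 0.00323). The groups do not overlap in either arm. Of 20 tested genes of mTOR and LARP1 control, 3 rose and 13 fell in CIRBP (median -0.17). Eif4ebp1, the translation repressor that mTOR inactivates, was at 194, 194 and 191 FPKM in CIRBP, against 59.6, 60.4 and 64.6 FPKM in NC (log2 fold change 1.63, SE 0.033, adjusted p = 7.85e-07). Tsc1, part of the complex that restrains mTOR, was at 6.86, 7.10 and 6.68 FPKM in CIRBP and 16.6, 16.3 and 15.9 FPKM in NC (log2 fold change -1.13, SE 0.038, adjusted p = 2.38e-06). Larp1 was called in the si arm, at 55.4, 56.9 and 54.8 FPKM in si-CIRBP and 74.8, 69.1 and 69.1 FPKM in si-NC (log2 fold change -0.34, SE 0.066, adjusted p = 0.0331).

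A list of elongation factors and other genes known for TOP mRNAs (20 tested, Rack1 included) had 11 higher and 6 lower in CIRBP and a median of 0.10, beside 0.11 for the ribosomal protein genes. In the start-site search above, 2 of 19 promoters of this list (10.5%) held a run of at least 8 pyrimidines and 0 of 19 a C followed by at least 4. Eef1a1, the elongation factor that brings the amino acids, was at 2523, 2524 and 2339.6 FPKM in CIRBP, against 1775, 1709.6 and 1717 FPKM in NC (log2 fold change 0.50, SE 0.052, adjusted p = 0.000190). Tpt1 averaged 1334 ± 4.91 FPKM in CIRBP and 980.1 ± 23.2 FPKM in NC (log2 fold change 0.44), while Npm1 and Naca fell (-0.25 and -0.33). Mitochondrial ribosomal protein genes had 11 higher and 44 lower of 73 (median -0.23), with Mrps30 at -0.80, and in the si arm 4 lower (median -0.04). Translation initiation factor genes had 7 higher and 29 lower of 43 (median -0.24). The smallest adjusted p was that of Eif3a, at 84.4 ± 1.82 FPKM in CIRBP and 187 ± 0.523 FPKM in NC (log2 fold change -1.14). Eif6, which keeps the large subunit from joining too early, fell with them (-1.36). Nuclear respiratory chain genes had 30 higher and 16 lower of 74 in CIRBP (median 0.07), and 10 higher and none lower in si-CIRBP (median 0.21). Of 14 genes of ribosome surveillance and the link to p53, 3 rose and 10 fell in CIRBP (median -0.42), among them Mdm2, at 45.5 ± 1.10 FPKM in CIRBP and 141 ± 4.07 FPKM in NC (log2 fold change -1.61). These lists are described by counts and medians, and no test of a list against other genes was made.

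**Figure D5:**
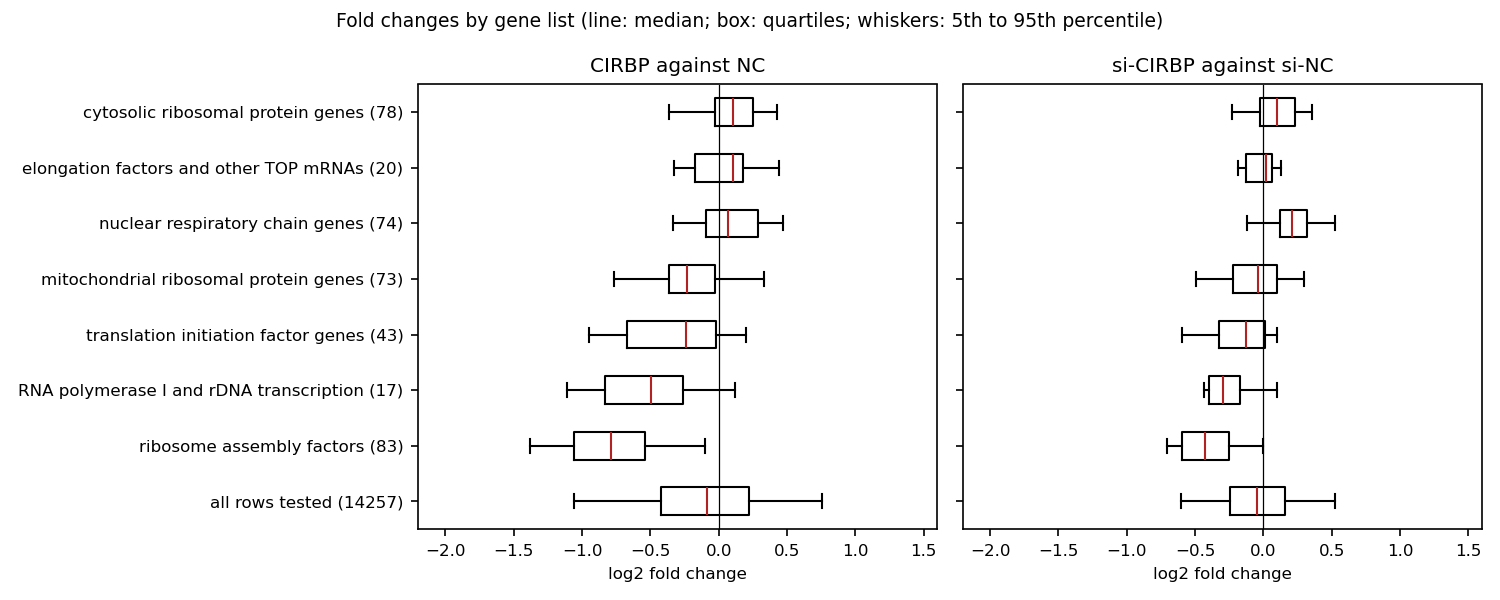
Log2 fold changes in CIRBP against NC (left) and si-CIRBP against si-NC (right) by gene list, with the number of genes in brackets. The line is the median, the box the quartiles and the whiskers the 5th and 95th percentiles. The ribosomal protein genes have medians of 0.11 and 0.10, ribosome assembly factors -0.79 and -0.43, and all rows -0.08 and -0.04.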

How the data were processed

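The deposited table gives FPKM per gene and library, computed by the authors, per the file headers. Per the submitters' processing notes, Bowtie2 2.3.3.1 and Cufflinks 2.2.1 were used in some role, and GRCm38 and mm10, which are mouse builds, appear as genome. The identifiers are rat Ensembl ones, so the build is unclear and no coordinates of the table are printed. The strand and annotation version were not named in these sources. Promoter sequences and their coordinates come from RefSeq (GRCr8).

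Columns were matched to libraries by name. Groups were compared with limma 3.58.1 in R 4.3.3 (eBayes with a trend, two-sided) on log2(FPKM + 1), over rows that reached 1 FPKM in no fewer than 3 libraries, without further scaling or a replicate block. Each pair of groups was fitted on its own 6 libraries, because the arms differ in spread, and the difference of the arms on all 12. Benjamini-Hochberg adjustment covered all 14257 rows tested, and calls have an adjusted p under 0.05. They measure the spread among the libraries of a group only. A fold change on this scale understates the change of low values. The depth is unknown, so no counting interval was computed.

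The members, lists and alternatives were chosen with earlier results of these data known. Genes named are Rplp0, Rplp1, Rpsa, Rps3, Rpl5, Rpl11, the paralogs, Rps19bp1, the 5 largest called increases and decreases of each comparison, rows sharing a symbol, Fau, Rack1, and of each other list up to 4 called genes with the smallest adjusted p. Any other gene was picked with its values known, and a few are not reported here. The fits were tested on simulated data. Alternatives were other pseudocounts (0.1 and 10), filters, scalings and fits, a replicate block, rows of one symbol summed, and each replicate left out.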

Additional observations from a re-analysis of the deposited data

Results flagged for a closer look

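For 3 members the change in CIRBP against NC differed from that in si-CIRBP against si-NC by a test of the difference itself (limma, all 12 libraries). The difference on the log2 scale was -0.61 for Rps28 (adjusted p = 0.0277), -0.45 for Rps27l (adjusted p = 0.0286) and -0.39 for Rpl11 (adjusted p = 0.00837). For Rpl11, CIRBP libraries lay below all others. For Rps28 and Rps27l the fold change was negative in CIRBP against NC and positive in si-CIRBP against si-NC. The 3 si-CIRBP libraries had 592, 459 and 470.2 FPKM of Rps28, with library 1 highest, and 184, 177 and 185 FPKM of Rps27l.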

How the results depend on the processing

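For CIRBP against NC, between 29 and 54 members were called over the alternatives, and 37 to 47 with a library left out. Of all rows, 54.0 to 78.9% were called over the same alternatives, and 66.5 to 68.3% with a library left out. The median of the members was 0.26 after scaling to one median, 0.23 by median ratios and 0.038 to one sum of non-members, and 0.068 to 0.18 with a library left out. Rpl7 turned from -0.09 to 0.057 and 0.033 under the median scalings. For si-CIRBP against si-NC, the single call became 0 with no filter on low values, 2 after scaling to one median, 15 in the fit over all 12 libraries and 5 without si-CIRBP library 1 and si-NC library 2, and was 0 or 1 with a single library left out. All rows were called there at 5.87% with no filter and at 8.33% after scaling to one median. The median of the members there was 0.02 to 0.15. For si-NC against NC, 16 calls became 26 after scaling to one median, 29 by median ratios and 10 to one sum of non-members, and 0 to 28 with a library left out. For the difference of the arms, 3 calls became 1 with a variance factor per group and 1 to 13 with a library left out. Of all rows 16.1% were called with that factor, and 11.2 to 31.6% with a library left out. The median difference of the members, 0.00, was -0.017 after scaling to one sum of non-members and -0.047 to 0.077 with a library left out, so it has no direction. Cirbp in si-CIRBP against si-NC was -0.018 to 0.11 with a library left out, and in si-NC against NC 0.36 to 0.49, where the call was lost without NC library 1 (0.40) or 2 (0.43). The share of summed FPKM became, in CIRBP, NC, si-CIRBP and si-NC, 6.53, 6.28, 7.06 and 6.86% without mitochondrially encoded rows, 6.88, 6.54, 7.46 and 7.14% without the 20 highest other rows, 6.16, 6.03, 6.70 and 6.49% with rows of one symbol summed, and 5.91, 5.83, 6.47 and 6.24% with steady members only. Settings that leave out unsteady members or the libraries that stand apart together were chosen after seeing the data. The cause of these shifts was not tested. For single named members, counted only in comparisons where they were called, 561 values under alternatives kept direction and call, 82 lost the call and 2 turned. Calls gained under alternatives do not enter this count.

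Whether replicate numbers pair the CIRBP and NC libraries is unresolved. Correlations of same-numbered deviations were 0.0965, 0.0482 and 0.0995 there, and those of other numbers ran from -0.083 to -0.008. Each library thus correlated best with its own number, a hint from the data only. The deviations are from the mean of each group, so negative values for other numbers partly follow from positive ones for the same number. No correlation passed 0.1 in any comparison. The highest were between unlike numbers in si-CIRBP against si-NC (0.0921) and in si-NC against NC (0.0409), so values of this size also arise without a shared number. With the replicate number as a block, 49 members were called in CIRBP against NC (36 higher, 13 lower), against 70.5% of all rows (28.0% higher, 42.4% lower). There were 0 in si-CIRBP against si-NC, 4 in si-NC against NC and 4 for the difference. The shares of all rows were 0.701, 18.1 and 15.7% in the same order. FPKM do not show the depth that limits low values, and the spread of the si arm limits what can be called there.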
